A study of Bos taurus with 2 samples.

Results

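The let-7 family with mir-98 was taken from the table of known bovine miRNAs as every row named let-7a, let-7b, let-7c, let-7d, let-7e, let-7f, let-7g, let-7i or mir-98, on either arm of the hairpin. This gave 10 mature miRNAs from 9 pre-miRNAs, of 283 known miRNAs and 884 miRNAs with listed reads in all. The lactation library came from mammary gland (MG) of 1 Holstein cow aged 6 years that had been in milk for 2 months, and the non-lactation library from MG of 1 Holstein cow aged 4 years that was neither lactating nor pregnant. Neither label gives a genotype or a treatment, and each stage is thus modelled by 1 animal and 1 piece of whole gland. The files give, for each miRNA, how often its most abundant sequence was read and how often all its isomiRs (variants in length or sequence) were read. Levels are RPM, that is reads scaled to 1000000 clean reads, and a ratio is the RPM in lactation divided by that in non-lactation. No difference has a replicate check, so the tests on reads compare these libraries and not the stages. The 95% interval given with a ratio is exact (Clopper-Pearson) and describes counting error alone, and reads copied by PCR are not separate molecules.

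let-7 was found in the worm as a regulator of developmental timing, and vertebrates carry many copies of the gene. The mature miRNA is cut from the 5p arm of its hairpin, and bases 2 to 8, the seed, pair with target mRNAs such as those of RAS, HMGA2 and LIN28 genes. LIN28 proteins in turn bind let-7 precursors and block their processing, so that mature let-7 is scarce in embryonic cells and abundant in differentiated tissue.

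The 9 mature 5p sequences are shown because they differ so little that reads of a member can be told from those of another by few bases. Each is written 5′ to 3′ as listed by the authors, with the seed in capitals.
let-7a-5p: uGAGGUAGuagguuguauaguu
let-7b-5p: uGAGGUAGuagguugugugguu
let-7c-5p: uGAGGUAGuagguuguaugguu
let-7d-5p: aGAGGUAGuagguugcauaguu
let-7e-5p: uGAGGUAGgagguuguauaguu
let-7f-5p: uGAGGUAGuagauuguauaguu
let-7g-5p: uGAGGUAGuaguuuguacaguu
let-7i-5p: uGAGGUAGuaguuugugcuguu
mir-98-5p: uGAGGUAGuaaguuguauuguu

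All 9 have 22 bases and the same seed, and let-7d-5p is the member that begins with A in place of U. Counted from 1 at the 5′ end, 8 of the 22 positions vary among them. Of 36 pairs, 4 differ at 1 base, which are let-7a-5p and let-7c-5p (A19G), let-7a-5p and let-7e-5p (U9G), let-7a-5p and let-7f-5p (G12A), and let-7b-5p and let-7c-5p (G17A). The most distant pair, let-7d-5p and let-7i-5p, differs at 6 bases. An isomiR of let-7a-5p or let-7c-5p that ends before base 19 fits both sequences, and the sources used here do not say how such reads were divided. Counts of all isomiRs are therefore less certain between close members than counts of the full sequence.

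The pre-miRNAs lie on 6 chromosomes of build BTA 4.0, at the positions listed by the authors. On chromosome 8 the plus strand holds let-7a (chr8:89743299-89743378), let-7f (chr8:89743652-89743738) and let-7d (chr8:89745858-89745944), with 273 bases between let-7a and let-7f and 2119 between let-7f and let-7d. The other members were listed at chr1:20136237-20136320 on the minus strand for let-7c, chr5:55133072-55133155 on the minus strand for let-7i, chr5:123308012-123308092 on the plus strand for let-7b, chr18:57588165-57588243 on the plus strand for let-7e, chr22:49631988-49632070 on the plus strand for let-7g and chrX:58737622-58737740 on the minus strand for mir-98. In the RefSeq gene table of another build, ARS-UCD2.0, the members have 12 loci, of which 3 encode let-7a and 2 encode let-7f. Reads of let-7a-5p or let-7f-5p from different loci cannot be told apart. In that table MIRLET7G overlaps WDR82, and MIRLET7F-2 and MIR98 overlap HUWE1. MIRLET7B and MIRLET7A-3 overlap an uncharacterised protein-coding gene, MIRLET7C a lncRNA and MIRLET7I a transcribed pseudogene, and the chromosome 8 group overlaps no other listed gene.

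let-7a-5p, let-7f-5p and let-7b-5p held most of the family's reads in both libraries, and their order changed between them. let-7a-5p had 1299748 reads (108630 RPM) in lactation, against 1281050 reads (80225 RPM) in non-lactation. let-7f-5p had 1003169 reads (83843 RPM) in lactation and 1422718 reads (89097 RPM) in non-lactation. By most abundant sequence let-7a-5p was thus the most abundant known miRNA in lactation and let-7f-5p in non-lactation. let-7b-5p, at 700795 reads (58571 RPM) in lactation and 501558 (31410 RPM) in non-lactation, held rank 3 and rank 5 among known miRNAs. With all isomiRs let-7a-5p held rank 1 in both libraries, with 2057583 reads against 1942403 of let-7f-5p in non-lactation. By that count let-7b-5p lay above let-7f-5p in lactation and below it in non-lactation.

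By most abundant sequence the middle of the family changed order as well. let-7g-5p had 291223 reads (24340 RPM) in lactation, against 288556 (18071 RPM) in non-lactation. let-7c-5p had 254753 reads (21292 RPM) in lactation and 476952 (29869 RPM) in non-lactation, so that it lay below let-7g-5p in lactation and above it in non-lactation. With all isomiRs let-7c-5p lay above let-7g-5p in both libraries. It had 419267 isomiR reads against 385097 in lactation, and 847895 against 377913 in non-lactation. let-7i-5p, let-7d-5p and let-7e-5p followed in both libraries, with 52184, 28956 and 14603 reads (4361, 2420 and 1220 RPM) in lactation and 91345, 46509 and 20610 reads (5720, 2913 and 1291 RPM) in non-lactation. mir-98-5p, the member that the authors listed on chromosome X, was the least abundant 5p miRNA, with 3479 reads (291 RPM) in lactation and 2385 reads (149 RPM) in non-lactation. The 3p arm listed as a known miRNA, let-7a-3p, had 72 reads (6.02 RPM) in lactation and 42 reads (2.63 RPM) in non-lactation. The family thus spanned more than 4 orders of magnitude within a library, and no neighbours in either order had a ratio whose counting interval included 1. By most abundant sequence the closest neighbours were let-7b-5p and let-7c-5p in non-lactation, at a ratio of 1.05 (1.047 to 1.056).

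**Figure D1:**
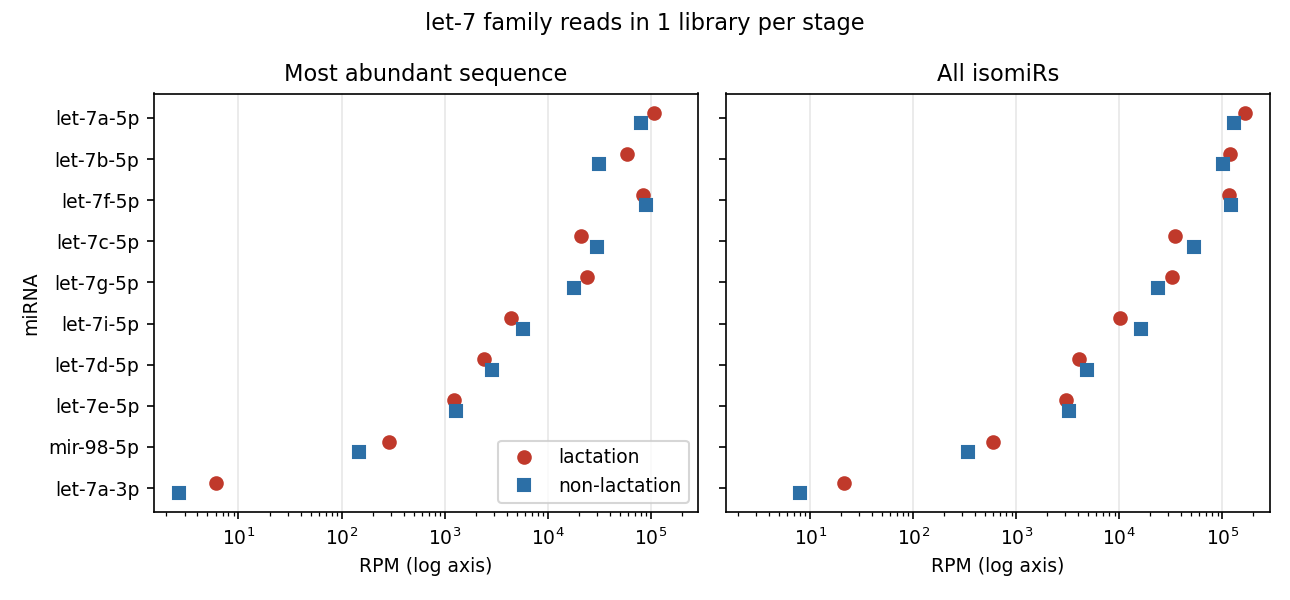
Level of the 10 let-7 family miRNAs in RPM (log axis) for the most abundant sequence (left) and all isomiRs (right), with 1 point per library (red circles, lactation; blue squares, non-lactation). let-7a-5p and let-7g-5p lie further right in lactation and let-7c-5p and let-7i-5p further right in non-lactation, and the 3p arm of let-7a lies far below the 5p members.

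Summed over the 10 members, 3648982 most abundant sequences were 30.5% of clean reads in lactation, and 4131725 were 25.9% in non-lactation (ratio 1.18, interval 1.177 to 1.180). This direction depended on the scaling, since the ratio was 1.01 with TMM factors, 0.989 with DESeq2 size factors and 0.883 without scaling. With all isomiRs the family held 48.6% of clean reads in lactation and 45.4% in non-lactation (ratio 1.07). The direction of this ratio turned as well, to 0.913 with TMM factors, 0.897 with DESeq2 size factors and 0.801 without scaling. The 3 most abundant members together had a ratio of 1.25, and the other 6 5p members a ratio of 0.930.

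The question of the study was which miRNAs differ between the lactating and the non-lactating gland, and within the family the differences ran in both directions. The 5 members higher in lactation were let-7a-3p at 2.29 (interval 1.54 to 3.43), mir-98-5p at 1.95 (1.85 to 2.05), let-7b-5p at 1.86 (1.858 to 1.872), let-7a-5p at 1.35 (1.351 to 1.357) and let-7g-5p at 1.35 (1.340 to 1.354). The 5 members lower in lactation were let-7c-5p at 0.713 (0.709 to 0.716), let-7i-5p at 0.762 (0.754 to 0.771), let-7d-5p at 0.831 (0.819 to 0.843), let-7f-5p at 0.941 (0.939 to 0.943) and let-7e-5p at 0.946 (0.926 to 0.966). Of the members listed in the chromosome 8 group, let-7a-5p was higher and let-7f-5p and let-7d-5p lower, but the reads of let-7a-5p and let-7f-5p may come from their other loci too. All 10 passed Fisher's exact test of the reads (two-sided, Bonferroni over 874 miRNAs), where the largest adjusted p was 0.0141 for let-7a-3p, followed by 0.000196 for let-7e-5p. At this depth the test passed differences as small as that of let-7e-5p, at 0.946. Of all miRNAs tested, many of which had few reads, 27.8% passed it (16.9% as higher in lactation and 10.9% as lower). Of the 81 known miRNAs with at least 2000 summed reads, the nearer comparison for the 5p members, 91.4% passed it in either direction.

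By size, 3 members were at least 1.5-fold higher in lactation (let-7a-3p, let-7b-5p and mir-98-5p) and 0 at least 1.5-fold lower. Among the 266 miRNAs with at least 100 summed reads, 40.2% were higher and 30.8% lower by the same rule (71.1% in either direction, and 67.9% of the abundant known miRNAs), so the members' count was not above the background. The median log2 ratio of the 9 5p members was -0.08, beside 0.22 over the 266 miRNAs and -0.07 over the 81 abundant known miRNAs. Of the 72 abundant known miRNAs outside the family, 43 (59.7%) had a larger absolute log2 ratio than mir-98-5p. Other scalings shifted every log2 ratio by 0.04 (sum of the listed reads), -0.23 (TMM), -0.25 (DESeq2) or -0.42 (no scaling) and turned the direction of none of the 10 members, but they moved the count to 3 higher and 2 lower with TMM or DESeq2 and to 1 higher and 3 lower without scaling. Without scaling, 78 of all miRNAs were higher and 108 lower, against 107 higher and 82 lower with clean reads as totals.

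**Figure D2:**
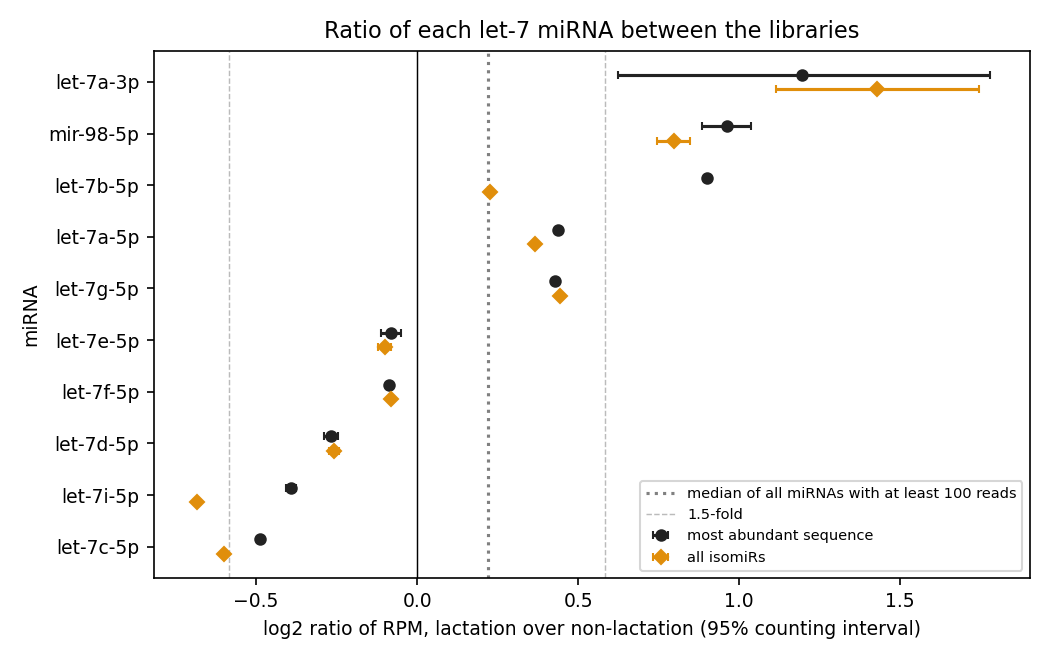
log2 of RPM in lactation divided by RPM in non-lactation for the 10 members, with 95% counting intervals (black circles, most abundant sequence; orange diamonds, all isomiRs); the solid line marks no difference, the dotted line the median of all miRNAs with at least 100 reads, and the dashed lines 1.5-fold. let-7b-5p drops from outside to inside the dashed lines when all isomiRs are counted, and let-7i-5p and let-7c-5p pass to outside them.

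Counting all isomiRs kept the direction of the 10 members and changed the size of some. let-7b-5p had 1431945 isomiR reads in lactation and 1632427 in non-lactation, a ratio of 1.17 (1.168 to 1.173), which fell to 0.999 with TMM factors, 0.983 with DESeq2 size factors and 0.877 without scaling. let-7a-5p, at 1.29 (1.285 to 1.290) with all isomiRs, was 0.965 without scaling. let-7c-5p and let-7i-5p were lower at 0.660 and 0.623, past the 1.5-fold rule, and mir-98-5p was past it at 1.74 (1.68 to 1.80). This last call ended with all isomiRs and another scaling combined, at 1.48 with TMM factors, 1.46 with DESeq2 size factors and 1.30 without scaling, as did that of let-7c-5p at 0.680 with the sum of the listed reads. By all isomiR reads 2 members were thus higher (let-7a-3p and mir-98-5p) and 2 lower by 1.5-fold, where 68.7% of all miRNAs with at least 100 isomiR reads were past the rule in either direction.

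Shares within the family do not depend on library totals. let-7a-5p was 35.6% of the let-7 reads in lactation and 31.0% in non-lactation, and let-7b-5p was 19.2% in lactation and 12.1% in non-lactation. let-7f-5p made up 27.5% in lactation against 34.4% in non-lactation, and let-7c-5p 6.98% against 11.5%. The rarer members kept small shares, as let-7g-5p had 7.98% in lactation and 6.98% in non-lactation, let-7i-5p 1.43% and 2.21%, let-7d-5p 0.794% and 1.13%, let-7e-5p 0.400% and 0.499%, and mir-98-5p 0.0953% and 0.0577%.

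Ratios of close relatives within a library showed the same exchange. let-7a-5p over let-7f-5p, which are neighbours on chromosome 8 and differ by G12A, was 1.30 in lactation and 0.900 in non-lactation, and 1.44 and 1.06 with all isomiRs. let-7b-5p over let-7c-5p, which differ by G17A, was 2.75 in lactation and 1.05 in non-lactation, and 3.42 and 1.93 with all isomiRs. let-7g-5p over let-7i-5p was 5.58 in lactation and 3.16 in non-lactation. let-7b-5p over let-7a-5p turned with the reads counted, since it was 0.539 in lactation and 0.392 in non-lactation for the most abundant sequence but 0.721 in lactation and 0.793 in non-lactation for all isomiRs.

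**Figure D3:**
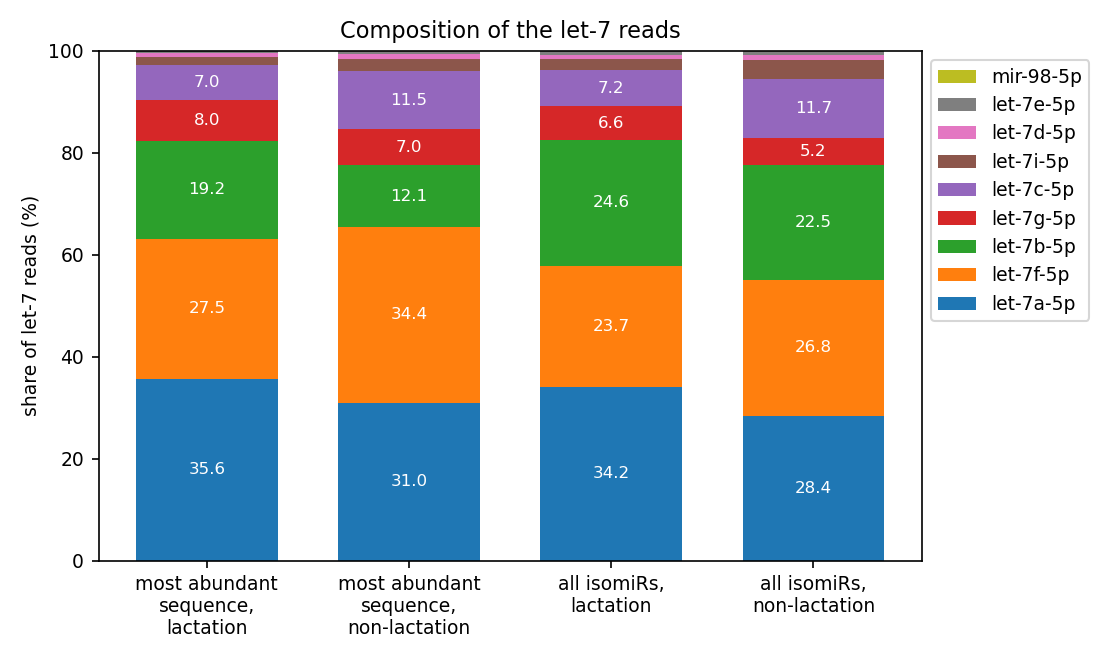
Share of each 5p member among the let-7 reads (%) in each library, for the most abundant sequence and for all isomiRs, lactation left of non-lactation in each pair. let-7b-5p takes 19.2% in lactation and 12.1% in non-lactation by the most abundant sequence, and 24.6% in lactation and 22.5% in non-lactation by all isomiRs.

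The most abundant sequence made up a different part of the isomiRs of each member, and for let-7b-5p this part differed widely between the libraries. For let-7b-5p it was 48.9% of isomiR reads in lactation and 30.7% in non-lactation, a difference of 18.2 percentage points. The other isomiRs of let-7b-5p ran the opposite way to its main sequence, with 731150 reads in lactation and 1130869 in non-lactation (ratio 0.863). Among the 92 known miRNAs with at least 1000 isomiR reads in each library, 3 differed by more points, mir-200b-3p with the larger share in lactation and mir-148a-3p and mir-148b-3p with the larger share in non-lactation. The median difference over the 92 was -0.53 points. let-7i-5p had 42.7% in lactation against 34.8% in non-lactation, a difference of 7.83 points that stood in place 8 when the 92 were ordered from the largest excess in lactation.

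The other members were closer between the libraries. let-7g-5p (75.6% in lactation, 76.4% in non-lactation) and let-7f-5p (72.9% and 73.2%) had the most uniform reads. let-7a-5p (65.5% in lactation and 62.3% in non-lactation), let-7c-5p (60.8% and 56.3%) and mir-98-5p (49.4% and 44.0%) were higher in lactation, while let-7d-5p (59.3% and 59.6%) and let-7e-5p (39.9% and 39.3%) differed by less than 1 point. In total 6 of 9 members had the larger share in lactation, beside 42 of the 92 miRNAs, whose median share was 44.3% in lactation and 46.1% in non-lactation. The number of different isomiRs was also larger in lactation for 8 of the 9 members, with 449 and 388 kinds for let-7b-5p and 448 and 406 for let-7a-5p, although the non-lactation library was the deeper. The same held for 63 of the 92 known miRNAs (68.5%). let-7c-5p, with 366 kinds in lactation and 371 in non-lactation, was the exception. Which variants make up the isomiRs was not analysed here.

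**Figure D4:**
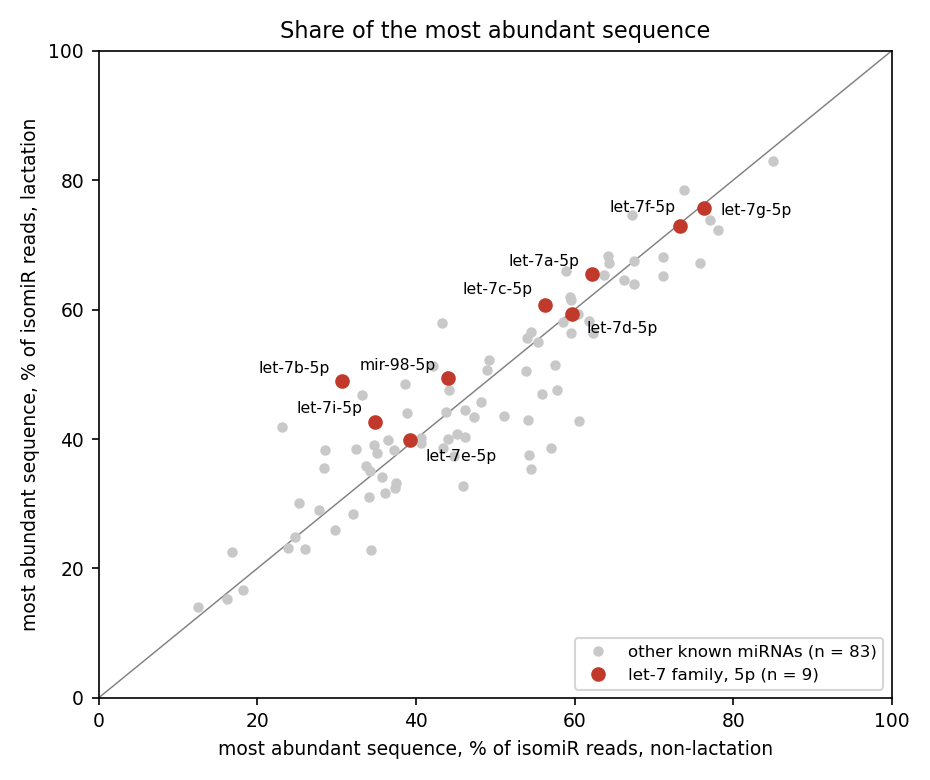
Share of the most abundant sequence among the isomiR reads of a miRNA (%), lactation on the vertical and non-lactation on the horizontal axis, for the 9 5p members (red) and 83 other known miRNAs (grey) with at least 1000 isomiR reads in each library; the line marks equal shares. let-7b-5p lies 18.2 points above the line and let-7f-5p, let-7g-5p, let-7d-5p and let-7e-5p lie within 1 point of it.

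The 3p arm of a let-7 hairpin is the passenger strand, which is mostly degraded once the 5p arm is loaded into Argonaute. An entry with the coordinates of the pre-miRNA was listed on the 3p arm for 8 of the 9 hairpins, let-7c being the exception. Of these, 7 stand in the table of candidates predicted from the genome (prefix CN). They are shown with bases 2 to 8 in capitals, because their seeds differ between members where those of the 5p arms do not.
let-7a-3p: cUAUACAAucuacugucuuuc
CN-486-3p (let-7b): cUAUACAAccuacugccuuccu
CN-431-3p (let-7f): cUAUACAAucuauugccuucc
CN-313-3p (mir-98): cUAUACAAcuuacuacuuucc
CN-432-3p (let-7d): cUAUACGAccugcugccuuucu
CN-307-3p (let-7e): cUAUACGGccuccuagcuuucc
CN-272-3p (let-7g): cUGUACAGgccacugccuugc
CN-299-3p (let-7i): cUGCGCAAgcuacugccuug

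The 3p arms of let-7a, let-7b, let-7f and mir-98 shared a seed, and those of let-7d, let-7e, let-7g and let-7i had each their own. All were rare beside the 5p arm. let-7d had the most, with CN-432-3p at 353 reads in lactation and 336 in non-lactation, or 1.20% of the reads of its hairpin in lactation and 0.717% in non-lactation. By most abundant sequence let-7f had the fewest beside its 5p arm, with CN-431-3p at 13 reads in lactation and 8 in non-lactation. With all isomiRs let-7g had the fewest, at 0.00623% of its hairpin in lactation and 0.00265% in non-lactation. For let-7f these shares were 0.00676% in lactation and 0.00293% in non-lactation. The reads of let-7f-5p may come from its other locus too, so the place of let-7f is uncertain. CN-486-3p of let-7b had 119 reads in lactation and 85 in non-lactation (ratio 1.87, interval 1.40 to 2.50), close to the 1.86 of let-7b-5p.

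By most abundant sequence 5 of the 8 arms were higher in lactation, and 3 of them had at least 100 summed reads. These 3, let-7a-3p, CN-486-3p and CN-432-3p, passed Fisher's exact test with adjusted p of 0.0141, 0.00874 and 0.00953. CN-432-3p was at 1.40 (1.20 to 1.63), while the 5p arm of the same hairpin was lower at 0.831. The other 5 arms had between 4 and 21 reads in a library, and their intervals included both 1 and the ratio of the 5p arm.

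With all isomiRs the 8 arms together had 1543 reads in lactation and 977 in non-lactation, a ratio of 2.11 (1.94 to 2.29), and all 8 were above 1. They ran from 1.07 (0.727 to 1.56) for CN-299-3p of let-7i, with 52 reads in lactation and 65 in non-lactation, to 5.03 (2.69 to 10.1) for CN-313-3p of mir-98, with 49 and 13 reads. The most abundant sequence of CN-313-3p ran the other way, with 4 reads in lactation and 8 in non-lactation (0.667, 0.147 to 2.49). CN-299-3p turned to 0.911 with TMM factors, 0.896 with DESeq2 size factors and 0.800 without scaling, and the other 7 kept their direction. For CN-432-3p of let-7d the 777 reads in lactation and 540 in non-lactation gave 1.92 (1.72 to 2.15). let-7a-3p, with 256 and 127 reads, was at 2.69 (2.17 to 3.35) and CN-486-3p of let-7b, with 243 and 120, at 2.70. By isomiR reads the ratio of the 3p arm was above that of the 5p arm in each of the 8 hairpins, which no scaling of the libraries alters. By most abundant sequence it was above in 5 of the 8 and below in let-7e (0.763 beside 0.946), let-7g (1.33 beside 1.35) and mir-98 (0.667 beside 1.95). For let-7a and let-7f the 5p reads may come from their other loci too, so these comparisons may not be within a single hairpin. The median of the excess by isomiR reads was 1.20 on the log2 scale, while 40 other known hairpins with a lesser 3p arm of at least 10 isomiR reads in each library had a median of 0.02, with the 3p ratio the higher in 21 of them. This last set was chosen after the values of the let-7 arms were seen, and the reads behind some arms are few, such as 24 in lactation and 10 in non-lactation for CN-272-3p of let-7g.

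**Figure D5:**
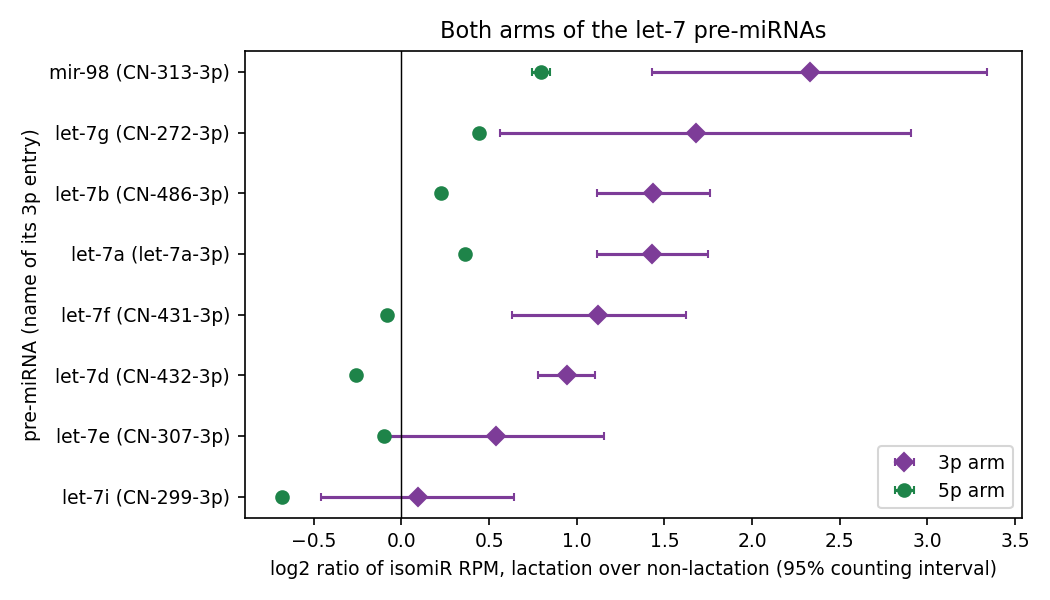
log2 of isomiR RPM in lactation divided by that in non-lactation for the 3p arm (purple diamonds) and the 5p arm (green circles) of the 8 let-7 hairpins with an entry on both arms, with 95% counting intervals. The diamond lies right of the circle in every hairpin, and among the diamonds the intervals of let-7i and let-7e reach below 0.

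Several members lie beside miRNAs of the mir-99/100 and mir-125 families, which are transcribed together with let-7 in mammals. The known miRNAs of these families named here were each at least 1.5-fold lower in lactation, as were 30.8% of the 266 miRNAs with at least 100 summed reads. mir-99a-5p, 642 bases from let-7c, had 11966 reads in lactation and 47580 in non-lactation (ratio 0.336), beside 0.713 for let-7c-5p, and mir-99a-3p was at 0.380. let-7e lies 98 bases from mir-99b-5p, with 5305 reads in lactation and 13982 in non-lactation (0.506), and 420 bases from mir-125a-5p, with 3217 and 11005 reads (0.390), while let-7e-5p itself was at 0.946. mir-100-5p (562 reads in lactation and 2302 in non-lactation, 0.326) and mir-125b-5p (22205 and 87038, 0.340) lie on chromosome 15, where RefSeq places MIRLET7A-2. The intervals of mir-99a-5p and mir-99a-3p did not reach the ratio of let-7c-5p, nor those of mir-99b-5p and mir-125a-5p that of let-7e-5p. The same cannot be asked of the chromosome 15 group, since let-7a-5p and mir-125b-5p have further loci. Within 10 kb there were 9 listed entries in all, of which PC-7e-5p overlaps let-7f and is described with the let-7-like entries. The others had few reads. mir-2443-5p beside let-7b had 13 in lactation and 9 in non-lactation. mir-3596-5p, on the strand opposite let-7b, had 11 in lactation and 20 in non-lactation. CN-306-3p and CN-308-3p have the coordinates of mir-99b and mir-125a and are listed on the 3p arm. CN-306-3p had 10 reads in lactation and 29 in non-lactation (0.460, 0.200 to 0.971). CN-308-3p was not lower, with 10 in lactation and 12 in non-lactation (1.11, 0.430 to 2.81).

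Outside the members, 11 entries resembled the family, of which 7 held its seed and 10 shared at least 15 bases in a row with a member. They had 1742 reads in lactation and 4660 in non-lactation, or 0.0477% and 0.113% of the members' reads, so that the totals above hardly depend on them. The 3 with the seed and at least 100 summed reads are shown, the seed again in capitals.
PC-7c-5p: uGAGGUAGuagguuguaugguuuu
PC-7e-5p: uGAGGUAGuagauugaauaguu
CN-303-3p: uGAGGUAGuagguuguggu

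PC-7c-5p, an entry conserved in other mammals (prefix PC), is let-7c-5p with uu added at its 3′ end. It had 0.391% of the reads of let-7c-5p in lactation and 0.908% in non-lactation. PC-7e-5p differs from let-7f-5p by U16A and overlaps the let-7f hairpin. It had 564 reads in lactation and 159 in non-lactation (ratio 4.73, interval 3.96 to 5.68), where let-7f-5p was at 0.941, and stood at 0.0562% of let-7f-5p in lactation and 0.0112% in non-lactation. Whether reads of the abundant member with a changed base were counted under the rarer name was not tested, so these levels are uncertain. CN-303-3p, on chromosome 13, had 100 reads in lactation and 46 in non-lactation (2.90, 2.03 to 4.21). PC-1827-3p, which lacks the seed, had 41 reads in lactation and 80 in non-lactation (0.684, 0.458 to 1.01), CN-226-5p had 16 and 8, PC-352-3p 7 and 9, mir-2288-3p and CN-70-5p 0 each in lactation and 3 each in non-lactation, and CN-234-5p and CN-399-5p 3 each in lactation and 0 each in non-lactation.

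The libraries also differed in miRNAs that mark cell types. The 6 epithelial markers (mir-200a, mir-200b, mir-200c, mir-141, mir-429 and mir-205), all listed, summed to 12385 RPM in lactation and 2596 RPM in non-lactation, and 5 of them were higher in lactation. The exception was mir-205-5p, with 2207 reads in lactation and 11063 in non-lactation (ratio 0.266). The 4 of stroma and smooth muscle summed to 8608 RPM in lactation and 14455 RPM in non-lactation, with mir-143-3p, mir-145-5p and mir-214-3p higher in lactation and mir-199a-3p lower. Entries of the mir-199 group outside the list, mir-199a-5p (0.376), mir-199b-5p (0.265) and mir-199c-3p (0.354), were lower as well. mir-214-3p had 26 reads in lactation and 20 in non-lactation, and its interval (0.932 to 3.28) included 1. The log2 ratio of mir-145-5p, 0.23, was smaller in size than the shift with DESeq2 factors (-0.25) or without scaling (-0.42). The 3 of striated muscle (mir-1, mir-133a and mir-206) summed to 4480 RPM in lactation and 696 RPM in non-lactation, all higher in lactation. Most of this sum was mir-1-3p, at 4393 RPM in lactation and 691 RPM in non-lactation, and mir-206-3p had only 13 reads in lactation and 5 in non-lactation. The 3 of blood, which are the red cell miRNAs mir-451, mir-486 and mir-144, summed to 90.8 RPM in lactation and 32.5 RPM in non-lactation. Of these, mir-144 had 3 reads in lactation and 0 in non-lactation, too few for a ratio. Some miRNAs of white blood cells, which are not on the list, ran the other way. mir-142-3p was at 0.517, mir-142-5p at 0.500 and mir-155-5p at 0.484. mir-223-3p was at 0.478, from 24 reads in lactation and 67 in non-lactation. mir-150-5p, also of white blood cells, was at 0.921, and its interval (0.752 to 1.13) included 1. The part of these cell types in the let-7 values was not tested. In whole gland a smaller number of cells of a type and less RNA per cell cannot be told apart, and age, animal, library and stage cannot be told apart either. Listed most abundant sequences were 5633174 reads, or 47.1% of clean reads, in lactation and 7752063, or 48.5%, in non-lactation.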

How the data were processed

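The authors sequenced small RNA of 1 library per stage, trimmed adaptors, dropped poor reads and other RNA classes, and placed what was left on miRBase (release 17.0) and build BTA 4.0 using ACGT-miR. The 3 deposited tables hold read counts by miRNA, both for its most abundant sequence and summed over isomiRs, and the number of isomiR kinds. The CN table labels its isomiR reads and kinds in an order that its values contradict, and the values were followed.

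RPM used the clean reads stated by the study. A ratio was tested by its exact conditional interval and by Fisher's exact test (two-sided, Bonferroni, threshold 0.05), and called at 1.5-fold with at least 100 summed reads. A single library per stage gives no dispersion, so edgeR 4.0.16 and DESeq2 1.42.0 in R 4.3.3 gave scaling factors only. Python 3.11.15 with numpy 2.4.6, scipy 1.17.1 and matplotlib 3.10.9 did the rest, and the code was tested on simulated data.

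miRNAs are named when they are members, share the coordinates of a member, are known and lie within 10 kb of one, belong to mir-99, mir-100 or mir-125, hold the seed or 15 shared bases, or are among the 3 nearest in ratio to the summed members. Other entries within 10 kb and mir-200b-3p, mir-148a-3p, mir-148b-3p, mir-142, mir-223, mir-155, mir-150 and mir-199 entries outside the marker list were named after their values were seen. Members, lists and rules were chosen with earlier results of these data known. Entries with reads but no name in the table of known miRNAs (9, with 1.96% of listed reads in lactation and 1.61% in non-lactation) stayed out of tests, and 1 CN entry with a blank value was left out. Alternatives were other scalings, all isomiRs, other fold and read minimums, Benjamini-Hochberg adjustment and other match rules. The labels name Trizol for RNA extraction and the study's methods a miRNeasy kit.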

Additional observations from a re-analysis of the deposited data

How the results depend on the processing

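No paired analysis was possible because there is 1 library per stage, and for the same reason no library could be left out. No single alternative turned the direction of a member, and those of let-7a-5p and let-7b-5p turned where all isomiRs and another scaling were combined, as given above. By most abundant sequence the summed let-7 reads turned from 1.18 to 0.989 with DESeq2 size factors and 0.883 without scaling. With all isomiRs they turned with TMM factors too, as given above. These alternatives were chosen after seeing the data, as were the scalings of the 3p arms. The count of members at least 1.5-fold higher in lactation was 3, and 1 with a fold of 2 or without scaling. The count at least 1.5-fold lower was 0, 2 with all isomiRs, TMM or DESeq2 factors, and 3 without scaling. The members that crossed the rule were let-7b-5p (1.40 without scaling, 1.17 with all isomiRs), mir-98-5p (1.46 without scaling), let-7c-5p (0.608 with TMM, 0.598 with DESeq2, 0.534 without scaling, 0.660 with all isomiRs), let-7i-5p (0.651, 0.640, 0.571 and 0.623 in the same order) and let-7d-5p (0.623 without scaling). Of the 3p arms, 5 were higher by most abundant sequence, 8 by all isomiRs and 4 without scaling. A scaling moves every ratio by the same factor, while the cause of the changes with all isomiRs was not tested. Depth limits the 3p arms, 5 of which had fewer than 100 summed reads, and not the 5p members, whose counting intervals are narrow beside the unknown spread between animals.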

Other observations

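Among the 40 known miRNAs outside the family with at least 10000 summed reads, those nearest in ratio to the summed let-7 reads (log2 0.24) were mir-152-3p at 1.18, mir-145-5p at 1.17 and mir-26b-5p at 1.22. They were nearest over 2 libraries only. mir-152-3p was at 0.836 with all isomiRs, whereas mir-145-5p and mir-26b-5p stayed at 1.18 and 1.16.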
